A study of Mus musculus with 9 samples.

Results

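The adhesion molecules described here are 10 proteins of the immunoglobulin superfamily that sit in the cell membrane: Cadm1, Cadm2, Cadm3, Cadm4, Mcam, Ncam1, Vcam1, Alcam, Cdon and Boc. They were chosen by name from 21938 protein-coding genes, and their loci were taken as the gene body with 10 kb on each side (mouse build mm10, GENCODE vM21). CUT&RUN peaks that overlapped a locus by at least 1 bp were assigned to it, which gave 118 of the 116126 peaks in 6 lists. The study mapped MyoD1, the transcription factor that directs the skeletal muscle program, in C2C12 mouse myoblasts with an antibody to its Flag tag. All 6 libraries came from 1 clonal line that carries 3xFlag-Halo-tagged MyoD1 at the endogenous gene plus a doxycycline (dox)-inducible 3xFlag-Halo-MyoD1 transgene under a TRE3GS promoter, and all cultures were moved to differentiation conditions. The 3 no dox libraries therefore hold endogenous tagged MyoD1, and the 3 +dox libraries, treated for 6 h, hold endogenous plus induced protein. The antibody does not tell the tagged pools apart, and 3 libraries from untagged wild-type cells were not analysed here, so no value is given against an untagged background.

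Immunoglobulin-type adhesion molecules hold cells together through extracellular immunoglobulin domains that bind the same or a different molecule on the neighbouring cell. The Cadm proteins (nectin-like molecules) pair with one another and link through their short tails to the membrane skeleton. Ncam1 marks myoblasts and regenerating fibers, Vcam1 binds the integrin formed by Itga4 and Itgb1 during myoblast contact, and Cdon and Boc are surface receptors that associate with cadherins, serve as Hedgehog co-receptors and promote myogenic differentiation. MyoD1 binds DNA as a dimer with an E protein at E-boxes (CANNTG), with CAGCTG as the form most often associated with it.

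Peaks shared between libraries formed 17 consensus regions at these loci, named below by the distance of the signal maximum from the 5′ end of the gene. The first set of sequences comes from regions that every library called. For each gene the tallest of them on average is shown, up to 300 bases around its maximum and outside UTRs, because its call did not depend on the library. The Alcam window lay wholly in UTR and is not printed. Sequences are the plus strand of GRCm38 (mm10), and capitals mark every CANNTG.
Cadm1 +145 kb, chr9:47674801-47675100: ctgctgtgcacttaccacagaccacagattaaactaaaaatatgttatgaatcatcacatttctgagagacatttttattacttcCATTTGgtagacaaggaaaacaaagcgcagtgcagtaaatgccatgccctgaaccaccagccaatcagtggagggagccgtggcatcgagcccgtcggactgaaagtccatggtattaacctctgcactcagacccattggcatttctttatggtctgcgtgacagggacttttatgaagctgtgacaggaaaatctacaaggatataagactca
Mcam -0.031 kb, chr9:44134288-44134468: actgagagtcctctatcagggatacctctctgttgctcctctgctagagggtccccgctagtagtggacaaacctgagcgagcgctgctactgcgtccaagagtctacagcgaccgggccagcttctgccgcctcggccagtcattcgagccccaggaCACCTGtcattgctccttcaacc
Ncam1 +1.62 kb, chr9:49797151-49797450: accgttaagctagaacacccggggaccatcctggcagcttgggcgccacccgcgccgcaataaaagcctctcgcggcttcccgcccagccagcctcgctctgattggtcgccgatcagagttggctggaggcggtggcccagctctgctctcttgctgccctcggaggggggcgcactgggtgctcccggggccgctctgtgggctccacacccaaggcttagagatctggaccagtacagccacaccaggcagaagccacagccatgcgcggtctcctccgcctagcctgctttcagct
These windows held few whole E-boxes. The Ncam1 window had 0 and a GC content of 66%, the Mcam window had 1 (CACCTG) at 59.1% GC, and the Cadm1 intron window had 1 (CATTTG) at 44% GC. The regions reach farther than the windows. With 100 bp added on each side, the Ncam1 region held 4 CAGCTG, the nearest 148 bp from the maximum. The Cadm1 region held 1 at 150 bp, and the Mcam region held 0. The window edge cut both of these nearest copies. At Ncam1 the maxima of single libraries lay up to 1050 bp apart. The second set shows 60 bases around the CAGCTG nearest to the maximum in the 6 regions where it lay within 100 bp of it. This set was chosen after the values were seen, to show the CAGCTG copies closest to a region's maximum.
Cadm1 +45.1 kb, chr9:47575279-47575338: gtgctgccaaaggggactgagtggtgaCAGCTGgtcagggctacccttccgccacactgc
Cadm4 -1.67 kb, chr7:24480258-24480317: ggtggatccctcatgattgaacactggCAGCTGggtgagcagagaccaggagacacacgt
Ncam1 +261 kb, chr9:49537941-49538000: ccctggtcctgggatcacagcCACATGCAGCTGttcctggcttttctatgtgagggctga
Ncam1 +136 kb, chr9:49663334-49663393: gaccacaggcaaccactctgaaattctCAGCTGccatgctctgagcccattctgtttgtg
Vcam1 +15.2 kb, chr3:116114405-116114464: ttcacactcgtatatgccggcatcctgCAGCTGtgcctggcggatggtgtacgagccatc
Cdon +53.3 kb, chr9:35474469-35474528: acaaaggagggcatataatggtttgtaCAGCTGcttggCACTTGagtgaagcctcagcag
The distance from the maximum to the middle of the CAGCTG was 5 bp at Ncam1 +261 kb, 37 bp at Ncam1 +136 kb, 41 bp at Vcam1, 63 bp at Cadm4, 73 bp at Cdon and 83 bp at Cadm1. Signal was stored on a grid of 50 bp, so distances below that size are not resolved. A region's maximum is also a median over libraries. The maxima of single libraries lay up to 500 bp apart at Cadm1, 375 bp at Ncam1 +136 kb and 225 bp at Ncam1 +261 kb. At Cadm4, Vcam1 and Cdon the spread was 175, 150 and 50 bp. The distances therefore do not show that every library peaked over the motif. At Ncam1 +261 kb a CACATG stood directly beside the CAGCTG, and at Cdon +53.3 kb a CACTTG stood within the same 60 bases.

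Lists differed in length before any comparison. The no dox lists held 9389, 13877 and 13403 peaks and the +dox lists 12536, 13260 and 53661. Depth, recovered from the step of the signal values, was 2868000 to 8030000 alignments, with +dox replicate 3 the deepest. The share of peaks within 1 kb of a start site also differed, at 56.7%, 53% and 34.9% without dox and 62.4%, 55.1% and 26.7% with dox, so both replicate 3 libraries held more distal peaks. Height is given as a percentile of the peak's maximum signal within its own list.

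The loci held 13, 17 and 15 peaks in the no dox libraries and 16, 16 and 41 in the +dox libraries. The means were 15 ± 2 without dox and 24.3 ± 14.4 with dox (SD, n = 3 each). The difference of 9.33 peaks was smaller than the +dox SD, and a two-sided exact permutation test of the means gave p = 0.4. One library, +dox replicate 3, made this difference, since without it the difference was 1 peak. As a share of its own list, that library had the lowest value. That library set the difference here too. The share was 0.138%, 0.123% and 0.112% without dox and 0.128%, 0.121% and 0.0764% with dox (difference of the means -0.0161 percentage points, exact permutation p = 0.5), and without +dox replicate 3 the difference was -0.000145. The exact (Clopper-Pearson) 95% interval, which covers counting error only, was 0.0737% to 0.237% for the highest of these shares and 0.0548% to 0.104% for the lowest. With 3 libraries against 3 the smallest p that this test can give is 0.1. Across the 4 summary tests made for these loci the lowest Benjamini-Hochberg adjusted p was 0.667.

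Peaks were found at 9 of the 10 loci (71.8% of all protein-coding loci had a peak in at least 1 library). Cadm1 and Ncam1 held most of them, at 28 and 38 of the 118. Ncam1, the neural cell adhesion molecule, had 4, 5 and 4 peaks without dox and 6, 6 and 13 with dox. The groups did not overlap, which made Ncam1 1 of the 9 loci with this pattern, against 4.29% of the 15749 loci with a peak. No locus of the 9 had fewer peaks in every +dox library, and 0.0127% of all loci did. For Ncam1 the difference was 4 peaks (exact permutation p = 0.1, Benjamini-Hochberg adjusted p = 1 over all loci). The separation was lost when every list was reduced to its strongest 9389 peaks, where the difference was -0.333, and when +dox replicate 3 alone was reduced to that length, where it was 1.

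Cadm1 had 3, 3 and 4 peaks without dox and 3, 5 and 10 with dox, and the groups met at 3. Cdon had 0, 2 and 1 peaks without dox and 2, 1 and 7 with dox. In both genes the highest count came from +dox replicate 3. Mcam, a melanoma and endothelial adhesion molecule also known as CD146, had 1 peak in every library. Alcam, the ligand of Cd6, had 1, 1 and 2 peaks in each group, and Vcam1 had 0, 1 and 1 without dox and 1, 1 and 2 with dox. These 3 genes varied by at most 1 peak within a group. Cadm4 had 2, 3 and 1 peaks without dox and 2, 1 and 3 with dox. Boc, the relative of Cdon, had 1 peak in each no dox library and 0, 0 and 2 with dox. Cadm2, the longest gene of the set at 965 kb, had 1 peak in no dox replicate 1 at percentile 6.8 and 1 in +dox replicate 3 at percentile 16.7. Cadm3, of 34.4 kb, had no peak in any list. Of the 5152 protein-coding loci of 40 to 70 kb, the size class of the Cadm3 locus, 21% also had none.

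**Figure D1:**
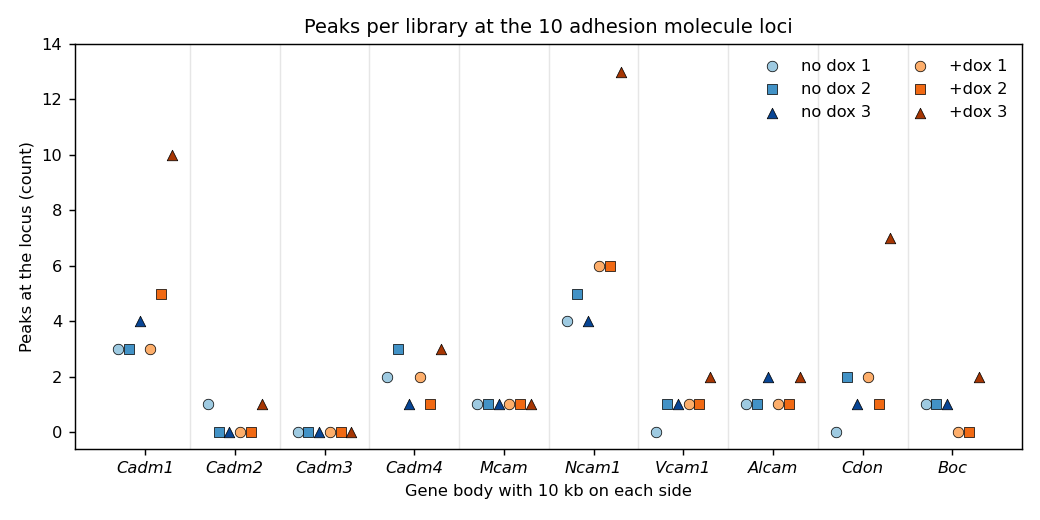
Number of peaks (y axis, count) at each of the 10 loci (x axis, gene body with 10 kb on each side) in the 3 no dox (blue) and 3 +dox (orange) libraries, 1 point per library. Ncam1 has 4 to 5 peaks without dox and 6 to 13 with dox, Mcam has 1 in every library, and the highest points at Cadm1, Ncam1 and Cdon are +dox replicate 3.

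Regions called in at least 2 of 3 no dox libraries are called Core, and regions called in at least 2 of 3 +dox libraries that overlap no Core region are called Expanded. The loci held 14 Core and 3 Expanded regions. Core regions lay at 7 of the 10 genes (35.5% of all protein-coding loci had one) and Expanded regions at 2 (25.6% of all). Ncam1 had 4 Core regions, Cadm1 and Cadm4 had 3 each, and Mcam, Vcam1, Alcam and Boc had 1 each. Expanded regions were found at Cdon, with 2, and at Cadm1, with 1. Cdon was the one gene of the set with Expanded but no Core regions. Outside all 17 regions lay 1, 1 and 2 of the no dox peaks and 0, 0 and 21 of the +dox peaks at these loci, both Cadm2 peaks included. The 21 were of the 41 peaks in +dox replicate 3, a list with 71.9% of its peaks outside every Core and Expanded region. Of the 17 regions, 8 were called in all 6 libraries (32.6% of the 14921 regions in the series), 3 each at Cadm1 and Ncam1 and 1 each at Mcam and Alcam. All 8 were Core, since a region called in all 6 is Core by definition. The like comparison is therefore 8 of the 14 Core regions against 50.9% of all Core regions. No region had a peak in all 3 +dox libraries but in none without dox, a pattern seen in 4.26% of all regions. Of the 16 +dox consensus regions at these loci 3 were Expanded, against 38.5% of the 13908 in the series. Core regions without a +dox consensus region numbered 2 of 14, at Cadm4 and Boc (10% of the 9560 Core regions).

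**Figure D2:**
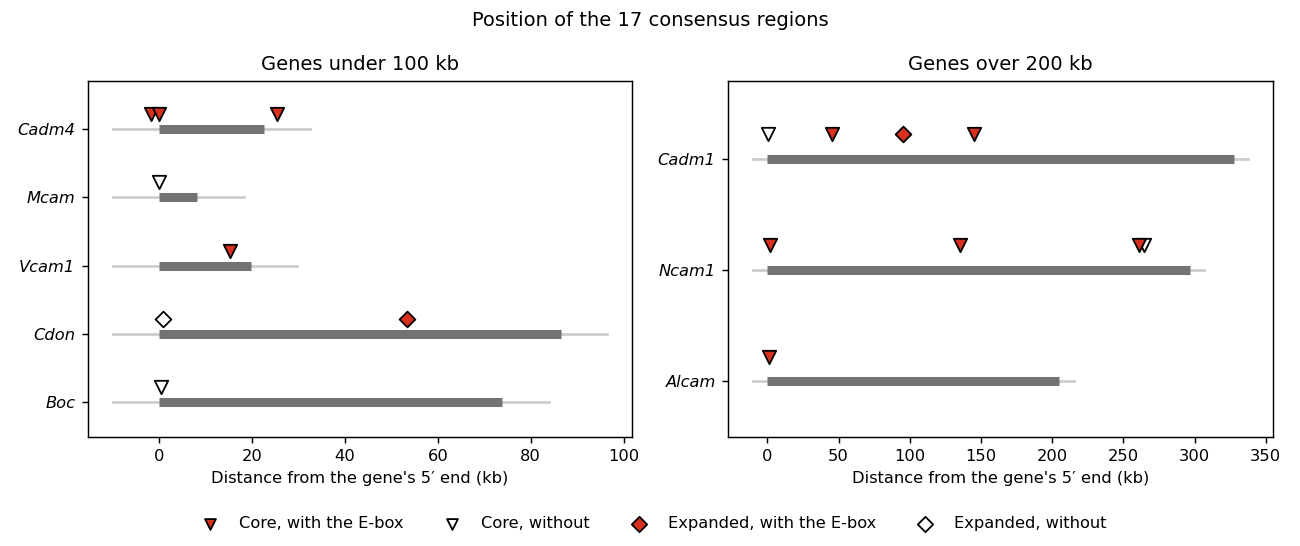
Position of the 17 consensus regions relative to the 5′ end of each gene (x axis, kb), with the gene body as a thick bar and the 10 kb on each side as a thin line. Triangles are Core and diamonds Expanded regions, and red fill marks a region that holds the E-box CAGCTG when extended by 100 bp on each side. In Boc, Mcam and Alcam the single region lies at the 5′ end, while in Cadm1 and Ncam1 regions are spread over the introns.

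The Cadm1 promoter region (chr9:47529851-47531300, maximum in a UTR at +0.153 kb) reached percentiles of 43, 58.6 and 14.9 without dox and 70.5, 60.5 and 73.2 with dox. Every +dox value lay above every no dox value. The same direction without overlap was seen for 23.7% of the 4865 regions called in all 6 libraries, and the opposite for 0.0617%. The means were 38.8 without dox and 29.2 points more with dox (exact permutation p = 0.1, smallest Benjamini-Hochberg adjusted p over these regions 0.421). Without no dox replicate 3 the difference was 17.2 points, without both replicate 3 libraries it was 14.7, and with equal list lengths the region was not called in every library. In CPM at the maximum the groups overlapped, at 4.65, 5.19 and 1.71 without dox and 14.6, 8.9 and 2.99 with dox. They also overlapped when percentiles were taken among the 4865 common regions alone, with a difference of 9.72 points. None of the 8 member regions called in all 6 libraries was separated in CPM, against 27.6% of all such regions, and none by the percentile among common regions, against 3.54%.

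At the Cadm1 intron regions called in all 6 libraries the groups overlapped. At +45.1 kb (chr9:47574451-47575600) percentiles were 36.6, 56.2 and 55.3 without dox and 23, 19 and 97.6 with dox. At +145 kb (chr9:47674351-47675450) they were 36.6, 77.7 and 91.7 without dox and 35.5, 37.4 and 91.8 with dox. At both sites +dox replicates 1 and 2 lay below or next to the lowest no dox library, and +dox replicate 3 had the highest percentile of all 6. At +145 kb that was 91.8 against 91.7 in no dox replicate 3, and in CPM it was lower, at 9.09 against 11.1. The differences of the means were -2.84 points at +45.1 kb and -13.8 at +145 kb (exact permutation p = 0.8 at +145 kb). By total signal the difference at +45.1 kb was 2.24. The Expanded intron region at +95.1 kb (chr9:47625051-47626600) was called in no dox replicate 3 at percentile 66, in +dox replicate 2 at 25.7 and in +dox replicate 3 at 86.9. It was thus present in 1 no dox library as well.

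Cadm4 had no region in all 6 libraries. The region at -1.67 kb (chr7:24479451-24481000, intergenic, with 4 CAGCTG) had a peak in 3 libraries, at percentile 44.9 in no dox replicate 2, 87.1 in no dox replicate 3 and 97.1 in +dox replicate 3. It counted as Core without a +dox consensus, although its highest value was in a +dox library. The promoter region (chr7:24481551-24482500, maximum at -60 bp) had 2 peaks per group, with percentiles of 21.4 and 51 without dox and 52.8 and 31.8 with dox. The third region, at +25.5 kb, lay in the flank, 346 bp from the start of Zfp428, and none of its percentiles without dox exceeded 13.6. With dox it stood at 23, 9.19 and 70.8.

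Mcam had a single region, at its promoter (chr9:44133951-44135400, maximum at -31 bp and also in an exon of the non-coding gene Gm10687). Its percentiles were 61.5, 51 and 66 without dox and 78.7, 72.7 and 87.9 with dox, a mean of 59.5 and a difference of 20.3 points (exact permutation p = 0.1). The groups did not overlap, and they also did not overlap without both replicate 3 libraries. In CPM at the maximum, values of 6.52, 4.52 and 4.29 without dox and 19.5, 12.2 and 6.48 with dox overlapped, since the lowest +dox value lay just under the highest no dox value. The groups overlapped in 4 other settings. The difference was 1.3 points with +dox replicate 3 alone reduced to the shortest list (exact permutation p = 1), 7.82 with equal list lengths, 10.7 among the common regions alone and 22 by total signal. Mcam and the Cadm1 promoter were the 2 of 8 regions with separated groups, beside the 23.7% of all regions given above, and in the other 6 the groups overlapped. By total signal 2 of 8 were also separated, the Cadm1 promoter and Alcam. No share over all regions is given for total signal, so this count has no background here.

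The 4 Core regions of Ncam1 had their maxima in introns at the 5′ end, in the middle and toward the 3′ end. The first of them, at +1.62 kb, also covers the annotated 5′ end of the gene. The region at +1.62 kb (chr9:49796351-49799350) was the widest of the 17 at 3000 bp and the most even, at percentiles 83.5, 79.1 and 78.4 without dox and 85.4, 80.6 and 91.4 with dox. The region at +136 kb (chr9:49662751-49664350) stood at 53.3, 37.5 and 85.9 without dox and 74.6, 19 and 97.5 with dox. The region at +261 kb (chr9:49536751-49538600) stood at 74.2, 67.4 and 94.2 without dox and 9.05, 65.7 and 99.3 with dox. At this site the 350 alignments at the maximum in +dox replicate 3 compare with 10 in +dox replicate 1, which is 43.6 against 3.49 in CPM. The last region, at +265 kb (chr9:49533551-49534700), was missing in no dox replicate 1 and ranged from 3.49 to 77 elsewhere. Its neighbour at +261 kb and this region both overlap the non-coding gene Gm11149.

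Alcam had the highest mean percentile of the 17 regions, 91.6. Its region (chr16:52452451-52454250, maximum at +0.998 kb, annotated as UTR) reached percentiles of 96.7, 95.4 and 66 without dox and 98.5, 96.5 and 96.8 with dox. The low value was no dox replicate 3, where 20 alignments covered the maximum against 138 and 114 in the other no dox libraries. Without both replicate 3 libraries the difference was 1.45 points. The Vcam1 region (chr3:116113951-116114800) had its maximum in a coding exon, at +15.2 kb, and was called in 5 libraries at 44.9 and 82 without dox and 23, 59.1 and 93.9 with dox. No dox replicate 1 had no peak there.

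Cdon and Boc differed in the kind of region called. The Cdon region near the 5′ end (chr9:35420951-35422400, in the first kb of the gene at +0.923 kb, intron) was called at 56.2 in no dox replicate 2 and at 72.7, 19 and 70.8 with dox. The Cdon intron region at +53.3 kb (chr9:35473001-35475000) reached 91.2 in no dox replicate 3, 35.5 in +dox replicate 1 and 99.2 in +dox replicate 3. Both Expanded regions were therefore also called in 1 no dox library, and they met the definition because a second no dox peak was missing. The Boc region (chr16:44557651-44558850, UTR at +0.321 kb) was low in the list of no dox replicate 1 (percentile 2.27) and of replicate 2 (3.61) and reached 44.8 in +dox replicate 3. With 8, 8 and 12 alignments at the maximum it had the lowest mean percentile of the 17 regions, 16.9.

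**Figure D3:**
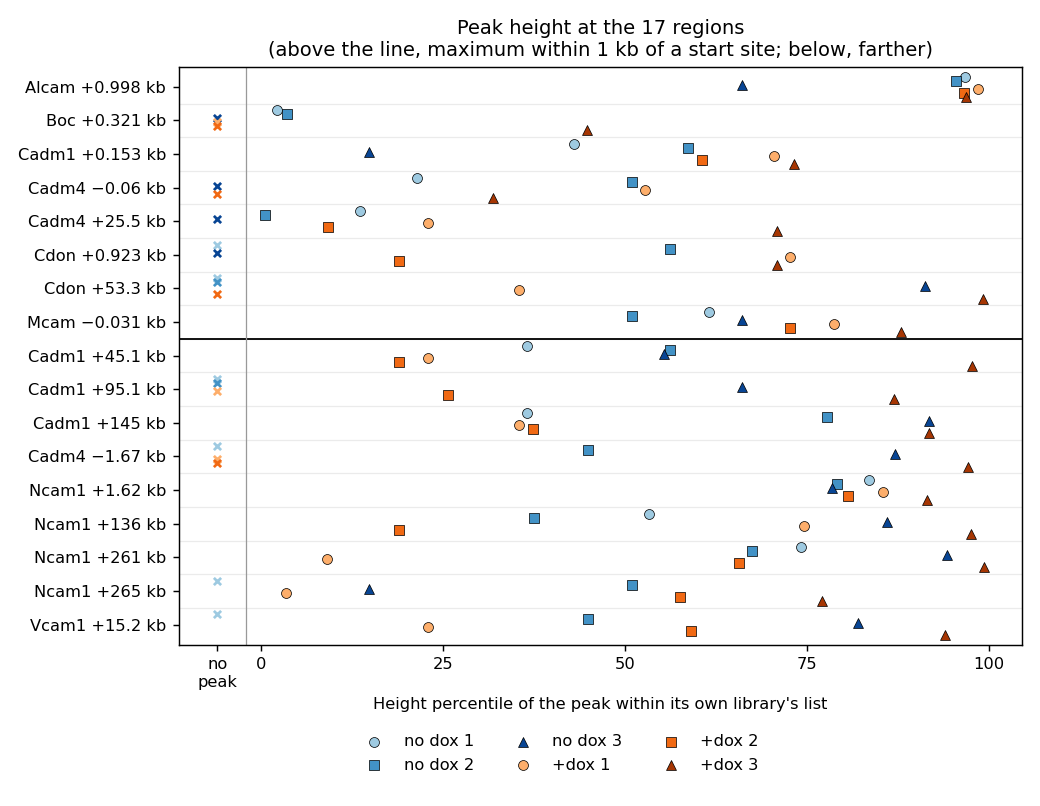
Height percentile of each library's peak within its own list (x axis) at the 17 regions (y axis, gene and distance from its 5′ end), with crosses where a library has no peak. Mcam and Cadm1 +0.153 kb show all 3 +dox points above all 3 no dox points, and below the line the triangles of +dox replicate 3 are the rightmost of their group in all 9 regions.

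Averaged over the 8 regions called in all 6 libraries, the percentile was 60.7, 65.4 and 69.1 without dox and 59.4, 56.4 and 91.9 with dox. The means were 65 ± 4.21 and 69.2 ± 19.7 (SD, n = 3 each). Their difference was smaller than the +dox SD, and the exact permutation test of the means gave p = 1. Without +dox replicate 3 the difference was -7.13 points. In 5 of the 8 regions the mean was higher with dox, against 76% of all 4865 regions. The rank of the replicate 3 libraries was counted by distance of the region's maximum from a start site. This places Ncam1 +1.62 kb among the distal regions, although the region covers the 5′ end of the gene. In the 9 regions farther than 1 kb from any start site, +dox replicate 3 was the highest of its group in 9 (94.9% of all such regions) and no dox replicate 3 in 6 (42.9% of all such). In the 8 regions within 1 kb of a start site, no dox replicate 3 alone was the lowest of its group, a missing peak counting as lowest, in 5 (33.6% of all such regions), while +dox replicate 3 was the highest of its group in 5 (81.9% of all such). The median of the 5 distal regions called in all 6 libraries was 53.3, 67.4 and 85.9 without dox and 35.5, 37.4 and 97.5 with dox. That of the 3 start-site regions was 61.5, 58.6 and 66 without dox and 78.7, 72.7 and 87.9 with dox. The part of library composition in these differences was not tested.

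E-box content was also counted by position. With 100 bp added on each side, 12 of the 17 regions held CAGCTG, a palindrome that reads the same on both strands, against 71.5% of all regions. Of the 5 without it, Cadm1 +0.153 kb, Mcam, Cdon +0.923 kb and Boc lay at start sites, and Ncam1 +265 kb lay in an intron. Within 100 bp of the maximum, CAGCTG was found in 5 of 9 distal regions (51.9% of all distal regions) and in 1 of 8 start-site regions (25.1% of all such). That 1 was Cdon +53.3 kb, which counts as a start-site region through the non-coding gene Gm25630 and not through Cdon. Any CANNTG, which includes CAGCTG, was present in 14 of the 17 windows (69.7% of all regions). The AP-1 motif TGANTCA, also searched on both strands, was in 1 of 17, at Ncam1 +261 kb (12.1% of all regions). Among single peaks, CAGCTG was found in 7 of 13, 11 of 17 and 12 of 15 without dox and in 8 of 16, 10 of 16 and 26 of 41 with dox. As percentages these were 53.8%, 64.7% and 80% against 50%, 62.5% and 63.4% (exact permutation p = 0.4), beside 57.8% to 73.4% over whole lists.

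The loci were longer than most, with a median of 100.2 kb against 37.4 kb for all protein-coding loci. Per Mb they held 6.25 Core regions, beside 6.28 over the union of all protein-coding loci, and 1.34 Expanded regions beside 3.58. Cadm2 alone contributed 985 kb without a region, and without it the Core density was 11.2 per Mb. That value has no like background here, since the 6.28 keeps the long loci. Only the 6.25 compares with it. Of the 83 protein-coding loci over 900 kb, 33.7% had a Core region. Having 4 or more Core regions, as Ncam1 did, was seen in 1.89% of all loci, and 3 or more in 4.4%. These shares are over loci of every length, whereas the Ncam1 and Cadm1 loci span 317 and 347 kb. No share among loci of that length is given.

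**Figure D4:**
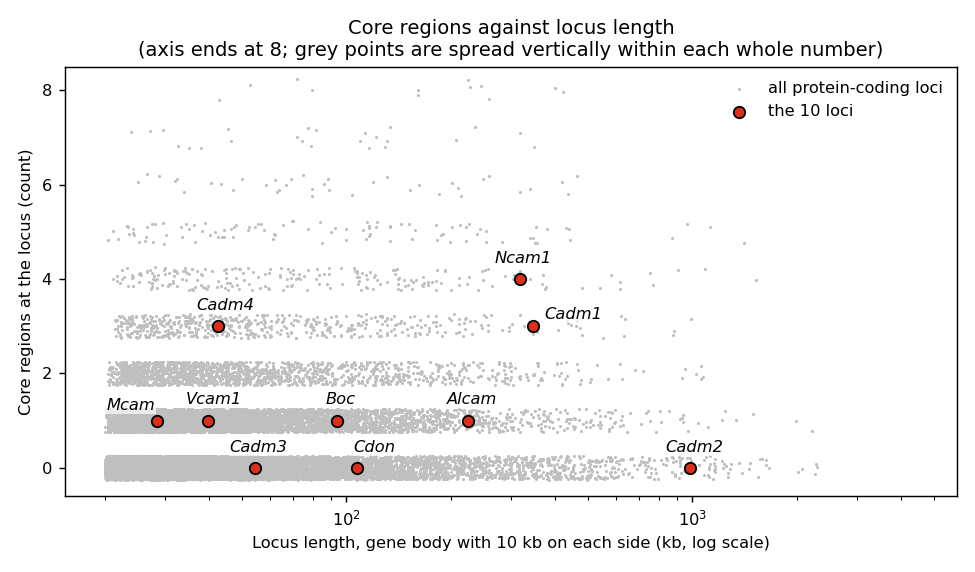
Core regions per locus (y axis, count) against locus length (x axis, kb, log scale) for all protein-coding loci (grey) and the 10 adhesion molecule loci (red). The axis ends at 8, and 20 loci with more are not drawn. Ncam1 with 4, Cadm1 and Cadm4 with 3 stand above the other members, and Cadm2, Cadm3 and Cdon lie at 0.

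Among 47 other immunoglobulin-type adhesion genes (nectins, junctional adhesion molecules, contactins, the Kirrel and IgLON groups and others), 14 had a Core region (29.8%) and 13 an Expanded region (27.7%), while 10 had no peak in any list. More peaks in every +dox than in every no dox library were counted at 3 of the 37 with a peak, namely Nectin1, Nectin3 and Igsf11. Fewer were counted at 0. Of all 15749 loci with a peak, 4.29% had more and 0.0127% fewer. Nectin1 had 1, 1 and 0 peaks without dox and 2, 2 and 10 with dox. Among 30 genes for ligands, partners and effectors of the 10 proteins, 12 had a Core region (40%) and 13 an Expanded region (43.3%). Over all protein-coding loci these shares were 35.5% and 25.6%. The median locus was 95.7 kb for the 47 genes and 83.7 kb for the 30, against 37.4 kb for all. Of the 28 with a peak, 1 had more peaks in every +dox library, beside the same 4.29% of all loci. This was Ptch1, the Hedgehog receptor with which Cdon and Boc act. It had 2, 1 and 1 peaks without dox and 3, 5 and 7 with dox. A region in all 6 libraries was found at 7 of the 30, among them Cdh15, the muscle cadherin, Fgfr4 and Itgb1, whereas Itga4 had no peak in any list. No share of all loci is given for a region in all 6 libraries.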

How the data were processed

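Per the labels and the methods of the study, CUT&RUN reads were processed by the authors with the nf-core/cutandrun pipeline on mm10 with CPM scaling and blacklist removal, and peaks were called for each library on its own by SEACR in relaxed mode (deepTools is also named in the submitters' processing notes). A control library or threshold for peak calling is not given in the sources used here. The deposited lists hold the total and maximum signal of each peak as coverage in CPM. The signal was used here only for ranks within a list, for CPM at maxima and to recover depth. In every list 100% of the maxima were whole multiples of 1 step within a tolerance of 0.02, which gave 2868000 to 8030000 alignments per library; whether these are reads or fragments was not stated. CPM carries no spike-in scale. The lowest maximum of a list was 4 alignments, or 6 in +dox replicate 2.

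Loci, start sites and exons came from GENCODE vM21 and sequence from GRCm38. Intervals of a group were merged and kept with a peak in 2 of 3 libraries, as in the study's consensus rule. The overlap rule that sets Expanded regions apart was chosen here. The resulting 9560 Core and 5361 Expanded regions differ in number from the study's published sets and are not those sets. A region's maximum is the median over libraries. Groups were compared by exact permutation over 20 assignments, with Benjamini-Hochberg adjustment over all loci or regions; libraries are biological replicates of 1 clone. At unadjusted p under 0.05, 0 loci and 0 regions passed, since none can. The 10 genes, the other gene lists and the tests were chosen with earlier results of these data known, and Mcam and Cadm4 are genes the study itself picked on binding and expression. All members were named, with every region called in all 6 libraries and otherwise the region in most libraries. The remaining regions, the CAGCTG windows and the other genes named were chosen after their values were seen. Scripts ran in Python 3.11.15 with NumPy 2.4.6, pandas 2.3.3, SciPy 1.17.1 and pysam 0.24.0 and were tested on simulated lists. Alternatives covered flank, list length, threshold, overlap, replicate rule, each library left out and a replicate block.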

Additional observations from a re-analysis of the deposited data

How the results depend on the processing

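Directions at these loci changed with list length and with single libraries. With every list reduced to its strongest 9389 peaks, the peak difference between +dox and no dox was -2, the mean percentile difference -6.17, Expanded regions numbered 1, and 0 loci and 0 regions kept separated groups; Cadm1 and Ncam1 peaks then differed by -0.333 each and the percentile at Ncam1 +1.62 kb by -5.95. With +dox replicate 3 alone reduced, an alternative chosen after seeing the data like the next, these were 0 peaks, -7.81 points, 0 loci, 0 regions and -8.05 at Ncam1 +1.62 kb, and the share of the list differed by 0.00463 percentage points. Without both replicate 3 libraries the mean percentile difference was -0.905. At a common threshold it was -0.718, with 0 loci and 1 region separated. A flank of 50 kb gave a share difference of 0.00806, 25 +dox consensus and 8 Expanded regions, and no flank left 1 Core region without a +dox consensus. A peak in 3 of 3 libraries left 8 Core regions, 0 of them without a +dox consensus. With percentiles among the common regions 0 regions were separated, and the differences were 9.33 at Cadm1 +45.1 kb and -4.48 at Ncam1 +1.62 kb; total signal gave 2.24 at Cadm1 +45.1 kb.

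Leaving out each library in turn gave 1 to 13.5 peaks of difference (1 without +dox replicate 3), -0.0258 to -0.000145 percentage points in the share (-0.000145 without +dox replicate 3), 8 to 14 Core regions (8 without no dox replicate 2), 1 to 7 Expanded regions (1 without +dox replicate 3, 7 without no dox replicate 2, 5 without no dox replicate 1 or 3), 0 to 3 Core regions without a +dox consensus (0 without no dox replicate 2), -7.13 to 10.6 points in mean percentile, 1 to 2 loci (2 without +dox replicate 1) and 2 to 4 regions with separated groups (4 without no dox replicate 1 or +dox replicate 2). For left-out libraries, reduced lists and the common threshold, no share over all loci or regions is given. Their counts of separated groups therefore have no background here. Single regions ranged from -28.4 to 10.9 at Cadm1 +45.1 kb, -12.1 to 27.1 at Ncam1 +136 kb and -41.3 to 3.86 at Ncam1 +261 kb. The cause of these changes was not tested beyond what the reduced lists and left-out libraries show.

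The values did not settle whether replicate numbers pair the samples. Deviations of same-numbered libraries correlated at 0.368, -0.0159 and 0.492 over 4865 regions, and 4 of 6 libraries correlated best with their own number. With a replicate block the differences were the same, with exact sign-flip p = 0.5 for peaks, 0.25 for the share, 1 for the percentile and 0.25 for CAGCTG, where 0.25 is the smallest possible p. The lowest maximum in a list was 4 to 6 alignments, and the part of depth in the calls was not tested.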
